A study of Mus musculus with 12 samples.

Results

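The genes described here encode the T cell receptor (TCR) complex and the proteins that carry, or restrain, its signal inside the cell. A fixed list of 44 gene symbols was used, taken from general knowledge of the pathway, and all 44 were found among the 40840 genes listed in the count files. All 44 were also among the 13570 genes with enough counts to be tested. They were put in 7 groups by role, namely the TCR-CD3 complex (4 genes), the coreceptor and surface glycoproteins (5), the proximal tyrosine kinases (4), the adaptors and effectors (8), the Ras, PKC and NF-kappaB branch (5), the negative regulators (11) and the calcineurin-NFAT branch (7).

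The TCR recognizes peptide bound to MHC but has no signaling domain of its own, so it depends on the CD3 chains, whose tails are phosphorylated by the kinase *Lck* and then bind the kinase *Zap70*. *Zap70* phosphorylates the adaptors *Lat* and SLP-76 (*Lcp2*), on which phospholipase C gamma 1 is activated, and the products of that enzyme open the branches that lead to Ras, to protein kinase C theta and NF-kappaB, and through calcium and calcineurin to NFAT. Phosphatases, ubiquitin ligases and diacylglycerol kinases dampen the signal at each of these steps, and T cells adjust the amounts of many of these proteins after activation.

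RNA-seq was performed on donor OTII cells, CD4+ T cells whose transgenic TCR recognizes an ovalbumin (OVA) peptide. The recipients were WT or *Il6*-/- mice. All of them were given house dust mite (HDM) extract with added LPS, an endotoxin, together with LPS-free OVA, by the intranasal route. OTII cells sorted from the mediastinal lymph nodes (mLN) on Day 3 or Day 5 made up 4 groups, WT Day 3, *Il6*-/- Day 3, WT Day 5 and *Il6*-/- Day 5, with 3 replicates each and 12 libraries in all. The donor cells were OTII cells in every group, so the genotype is that of the recipient, and nothing in the sources used here says that the donor cells lacked *Il6*. The ages of the mice were not given, and the sources do not say whether a replicate came from 1 mouse or from a pool, so the p values measure the spread between these samples, which may be technical. By the sample labels the tissue is blood, and endotoxin goes unmentioned there, and the days are those of the labels, which by the series description are counted from day 1.

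The depth of the libraries, as counts assigned to genes, ran from 16125947 to 26111657 around a median of 19727354. The 44 genes had at least 99 counts in every library, the lowest for *Rcan1*. CD4 T cell markers were abundant in all libraries, with a summed level of 7240 to 12600 counts per 1000000 counts on genes (CPM), whereas the 8 B cell markers summed to 6.83 to 17.3 CPM, with *Ms4a1* at or below 0.312 CPM and *Cd79b* at up to 7.38 CPM. The mean correlation of each library with the others of its group was between 0.9781 and 0.9856 (Pearson's r of log2 CPM across genes, which are not independent). *Il6*-/- Day 5 replicate 2, the shallowest library, was closer to the Day 3 libraries (mean r 0.9514) than the other Day 5 libraries were (0.9209 to 0.9396).

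The genes of 3 CD3 chains lie side by side on chromosome 9 (GRCm39), where *Cd3d* and *Cd3g* start 1348 bp apart in opposite directions and *Cd3e* starts 27842 bp from *Cd3d*, and *Cd247*, which encodes the zeta chain, lies on chromosome 1. The 250 bases upstream of the start of each canonical transcript in GENCODE are shown because these 4 genes moved together between the days. The letters searched were TTCNNNGAA (the core bound by STAT factors), TGAGTCA (AP-1), TGGAAA (NFAT) and CAGGAAG (ETS factors), on both strands, and the capitals mark each match. The windows are chr9:44892833-44893082 for *Cd3d* (forward strand), chr9:44891736-44891985 for *Cd3g* (reverse strand), chr9:44920912-44921161 for *Cd3e* (reverse strand) and chr1:165616000-165616249 for *Cd247* (forward strand), each written 5′ to 3′ in the direction of its gene.
Cd3d: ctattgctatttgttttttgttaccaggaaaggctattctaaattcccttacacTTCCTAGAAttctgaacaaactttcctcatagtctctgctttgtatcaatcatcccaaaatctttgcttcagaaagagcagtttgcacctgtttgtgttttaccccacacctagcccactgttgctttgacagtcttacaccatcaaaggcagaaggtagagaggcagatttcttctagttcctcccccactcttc
Cd3g: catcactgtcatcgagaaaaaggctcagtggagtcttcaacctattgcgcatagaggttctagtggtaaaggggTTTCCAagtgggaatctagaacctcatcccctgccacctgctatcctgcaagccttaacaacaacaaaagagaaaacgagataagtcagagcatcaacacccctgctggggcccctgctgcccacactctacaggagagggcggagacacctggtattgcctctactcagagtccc
Cd3e: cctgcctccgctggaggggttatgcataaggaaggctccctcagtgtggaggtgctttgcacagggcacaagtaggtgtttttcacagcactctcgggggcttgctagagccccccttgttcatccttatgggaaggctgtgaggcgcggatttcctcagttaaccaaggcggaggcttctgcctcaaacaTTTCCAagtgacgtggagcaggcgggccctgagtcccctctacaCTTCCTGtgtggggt
Cd247: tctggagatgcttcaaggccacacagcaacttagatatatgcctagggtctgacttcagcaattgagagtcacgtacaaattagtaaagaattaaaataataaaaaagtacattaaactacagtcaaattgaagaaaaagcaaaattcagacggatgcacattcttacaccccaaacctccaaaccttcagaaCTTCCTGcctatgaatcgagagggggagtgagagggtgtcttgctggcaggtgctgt
The *Cd3d* window held TTCNNNGAA, those of *Cd3g* and *Cd3e* held TGGAAA on the opposite strand, and those of *Cd3e* and *Cd247* held CAGGAAG on the opposite strand. No match overlapped another, and 14 bases of the *Cd3e* window lie in an annotated exon. Over all 19302 promoter windows of the same length, TTCNNNGAA was found in 7.38%, TGAGTCA in 3.96%, TGGAAA in 18.7% and CAGGAAG in 10.1%. Among the windows of the 44 genes, they were found in 5, 3, 7 and 9. A match describes the letters and does not show that a factor binds there.

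Levels are given as CPM after TMM scaling of the library sizes, and levels of different genes are compared only per kb of the canonical transcript. On Day 3, *Lck* had the highest level per length of the 44 genes in both genotypes, 945 CPM per kb in WT and 885 in *Il6*-/- recipients. *Cd3g*, which encodes the gamma chain of CD3, followed with 673 and 608 CPM per kb. On Day 5 the order of these genes was turned, with *Cd3g* at 1690 CPM per kb in WT and 1370 in *Il6*-/- recipients and *Lck* at 1170 and 1150. *Cd247*, *Lat*, *Cd3e*, *Ptprc*, *Cd2*, *Cd3d*, *Cd4* and *Ptpn6* made up the rest of the 10 highest in WT recipients on Day 3. *Cd3d* and *Cd4* were next to each other there, at 295 and 293 CPM per kb, and did not differ beyond their spread. The lowest levels per length were those of *Sos1*, *Ppp3ca* and *Rcan1* in all 4 groups, from 0.779 CPM per kb for *Sos1* in *Il6*-/- recipients on Day 3 to 4.78 for *Rcan1* in the same group.

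**Figure D1:**
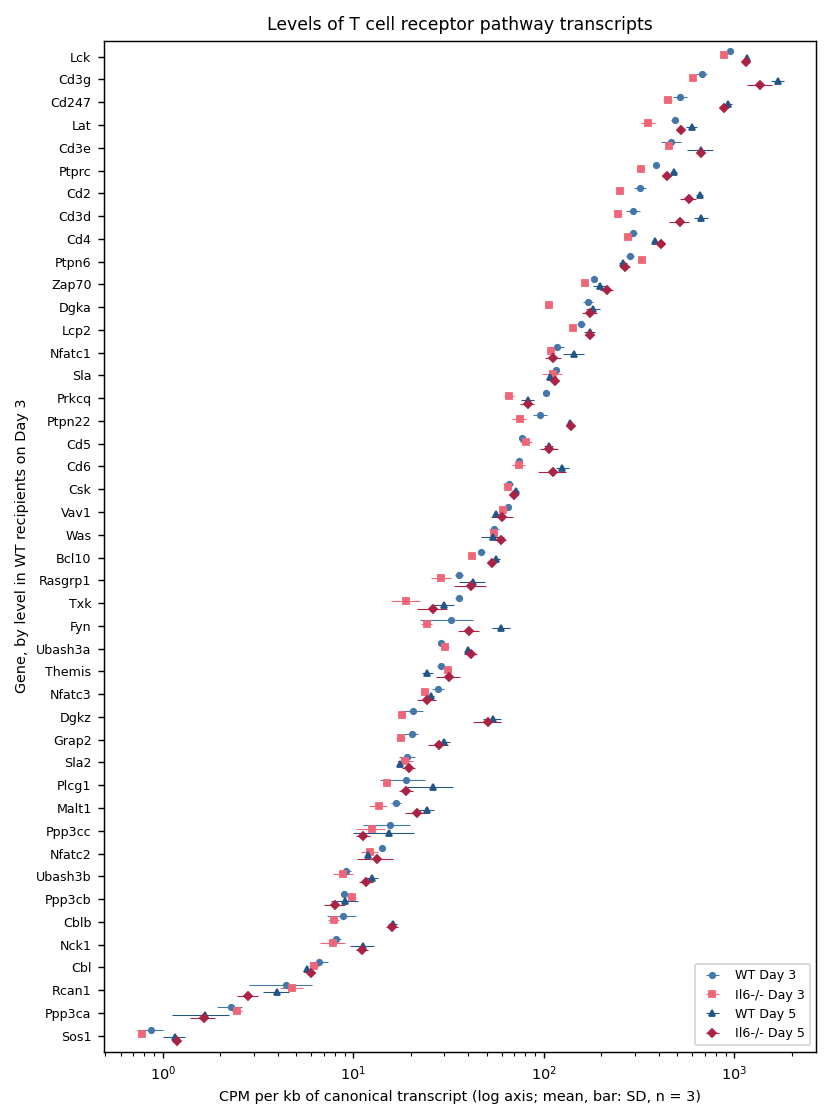
Levels of the 44 genes in CPM per kb of the canonical transcript on a log axis, as the mean and SD of 3 libraries for each of the 4 groups, with genes sorted by their level in WT recipients on Day 3. *Lck* is highest on Day 3 (945 CPM per kb in WT) and *Cd3g* on Day 5 (1690 CPM per kb in WT), and *Sos1* is lowest in all groups.

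The comparison of the days asked how transcripts of the pathway changed as priming went on. From Day 3 to Day 5 most of them rose, in OTII cells of both recipient genotypes. In WT recipients 24 of the 44 genes rose and 4 fell (edgeR quasi-likelihood test, FDR < 0.05 over all genes tested), which together is 63.6% of the 44, whereas 56.7% of all genes tested passed, 29.5% rising and 27.1% falling. In *Il6*-/- recipients 28 rose and 4 fell (72.7%), and 60.5% of all genes passed, 30.4% rising and 30.1% falling. Thus the share that passed lay near that of all genes and the split between rising and falling did not. The median log2 fold change of the 44 genes was 0.30 in WT and 0.40 in *Il6*-/- recipients, beside 0.09 over all genes in each. At least a 2-fold rise was seen for 4 genes in WT (background 12.7%) and 5 in *Il6*-/- recipients (background 14.5%), and no gene fell by that much, beside 9.39% and 11.4% of all genes. The libraries of the days did not overlap for 32 of the 44 genes in WT and 34 in *Il6*-/- recipients, beside 63.3% and 65.8% of all genes. In such bulk RNA, fewer cells of a type and less RNA per cell cannot be told apart. The share of reads counted on genes also moved with the day, at 60.2% to 62.2% on Day 3 and 52.5% to 56.7% on Day 5, and its part in these results was not tested. Summed markers moved with the day too. Those of CD4 T cells were at 7240 to 8970 CPM on Day 3 and 11200 to 12600 CPM on Day 5, and those of regulatory T cells at 54.8 to 87.2 and 95.9 to 130 CPM. The CD4 T cell list holds *Cd3e*, *Cd4* and *Lck* of the 44 genes and the TCR chain genes *Trac* and *Trbc2*. Its sum is therefore not separate from the results for the pathway. Most of the regulatory T cell sum was *Ikzf2*, with means of 69.7 and 106 CPM in WT and 51.2 and 87.5 CPM in *Il6*-/- recipients. *Ikzf2* and *Ikzf4* rose in both genotypes and *Gpr83* in WT recipients. *Foxp3* fell in WT recipients, from a mean of 7.6 to 2.84 CPM (log2 fold change -1.42, edgeR FDR = 0.0033). In *Il6*-/- recipients *Foxp3* did not pass (-0.12). Summed markers of myeloid and dendritic cells were at 28 to 43.7 and 55.8 to 92.8 CPM in WT recipients and overlapped in *Il6*-/- recipients. Without *Cd74* the WT sums, 14.1 to 28.6 and 23.2 to 49 CPM, overlapped too. *Csf1r* and *Siglech* were higher on Day 5 in both genotypes, *Cd74* in WT and *Cd14* in *Il6*-/- recipients. *Itgam* was lower in WT recipients (log2 fold change -0.86, edgeR FDR = 0.047). Of the CD8 T cell and NK cell markers, *Eomes* rose in both genotypes (3.29 and 2.13) and *Klrb1c* in WT recipients (2.77), and *Cd8a* fell in both (-3.51 and -3.2). The B cell marker *Cd79a* (at most 2.96 CPM) and the lung epithelium marker *Sftpb* (at most 2.29 CPM) were also higher on Day 5 in both genotypes, and the part of these markers in the results was not tested.

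**Figure D2:**
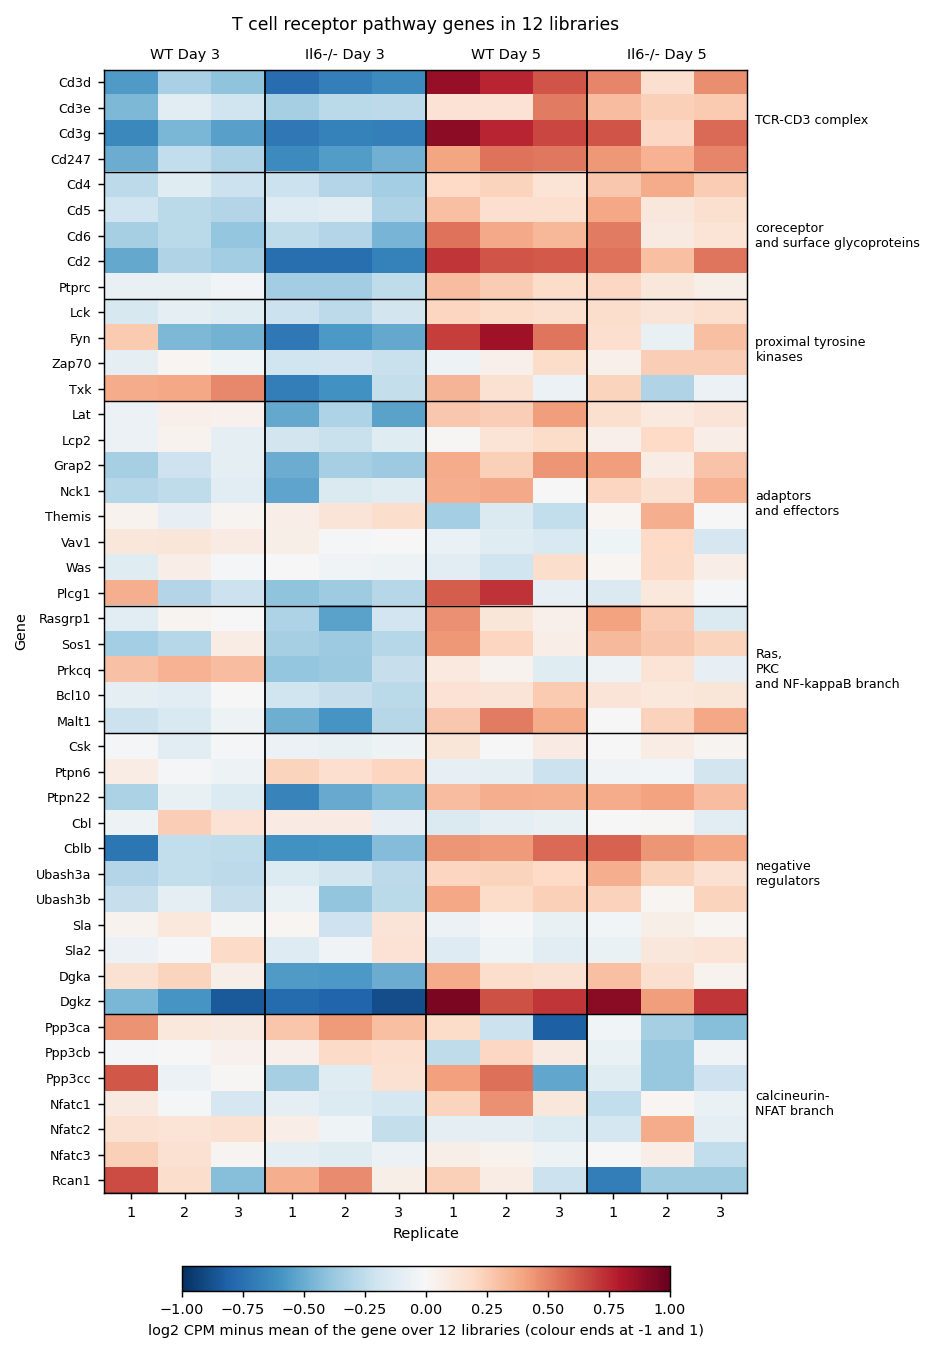
Heat map of the 44 genes (rows, by role) in 12 libraries (columns, by group and replicate), as log2 CPM minus the mean of the gene over the 12 libraries, with colours ending at -1 and 1. The rows of the TCR-CD3 complex and of the coreceptor and surface glycoproteins change from blue on Day 3 to red on Day 5 in both genotypes, whereas the calcineurin-NFAT rows show no such change.

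All 4 genes of the TCR-CD3 complex rose in both genotypes, with a median log2 fold change of 1.01 in WT and 1.03 in *Il6*-/- recipients. *Cd3g* was measured at 647, 737 and 695 CPM in the WT libraries of Day 3 and at 1880, 1720 and 1610 CPM in those of Day 5. In *Il6*-/- recipients its levels were 616, 633 and 629 CPM on Day 3 and 1570, 1170 and 1500 CPM on Day 5. Every Day 5 library was above every Day 3 library, and the log2 fold changes were 1.32 ± 0.10 (SE) in WT and 1.18 ± 0.10 in *Il6*-/- recipients (edgeR FDR = 6.5e-08 and 1.2e-07).

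The delta chain gene *Cd3d* was at 576, 681 and 647 CPM in WT Day 3 libraries and at 1560, 1450 and 1320 CPM in WT Day 5 libraries. Its levels in *Il6*-/- recipients were 503, 531 and 550 CPM on Day 3 and 1200, 955 and 1180 CPM on Day 5. The groups of the days did not overlap, and *Cd3d* rose by a log2 fold change of 1.18 in WT and 1.08 in *Il6*-/- recipients (edgeR FDR = 1.2e-07 and 2.0e-07). *Cd247* was at 532, 631 and 605 CPM in WT Day 3, 481, 508 and 536 CPM in *Il6*-/- Day 3, 987, 1090 and 1080 CPM in WT Day 5 and 1010, 954 and 1050 CPM in *Il6*-/- Day 5 libraries. All Day 5 libraries were higher, and the log2 fold changes were 0.84 and 0.98. Its exons share 3007 bp with those of *Pou2f1* on the opposite strand, and since counting ignored strand, reads from this stretch could not be assigned to either gene.

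*Cd3e*, which encodes the epsilon chain, rose less than the other 3. It was at 592, 751 and 705 CPM in WT Day 3 and 895, 892 and 1160 CPM in WT Day 5 libraries, and at 641, 669 and 676 CPM and 1000, 954 and 970 CPM in those of *Il6*-/- recipients. The days did not overlap, with log2 fold changes of 0.53 ± 0.10 and 0.56 ± 0.10 (edgeR FDR = 4.6e-04 and 2.3e-04). Whether the chains differed from each other in their change was not tested. *Il6*-/- Day 5 replicate 2, the shallowest library, held the lowest value of its group for each of the 4 chains.

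The 5 coreceptor and surface glycoprotein genes rose in both genotypes as well, with medians of 0.47 and 0.58. *Cd2* encodes an adhesion and costimulatory receptor for CD48 in the mouse. It was at 397, 459 and 444 CPM in WT Day 3 libraries, 336, 336 and 353 CPM in *Il6*-/- Day 3, 928, 875 and 866 CPM in WT Day 5 and 825, 696 and 819 CPM in *Il6*-/- Day 5. Both Day 5 groups lay above both Day 3 groups, and *Cd2* rose 2.05-fold in WT and 2.28-fold in *Il6*-/- recipients (edgeR FDR = 8.0e-08 and 2.0e-08). *Cd6*, a scavenger receptor family protein that tunes TCR signals, rose by log2 fold changes of 0.75 and 0.59. For *Cd5*, its relative and an inhibitor of TCR signaling, the values were 0.47 and 0.41. *Cd4*, the coreceptor for MHC class II, rose by 0.38 in WT and 0.58 in *Il6*-/- recipients, and *Ptprc*, the phosphatase CD45, by 0.31 and 0.44.

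Of the proximal kinases, *Lck* and *Fyn* rose in both genotypes. *Lck*, the kinase that starts the signal, was at 1950, 2050 and 2000 CPM in WT Day 3 libraries, 1880, 1820 and 1920 CPM in *Il6*-/- Day 3, 2530, 2480 and 2440 CPM in WT Day 5 and 2460, 2390 and 2440 CPM in *Il6*-/- Day 5. The spread within groups was small, the days did not overlap, and the log2 fold changes were 0.31 and 0.37 (edgeR FDR = 2.0e-04 and 3.0e-05). *Fyn*, a kinase of the same family, rose by 0.88 ± 0.16 and 0.74 ± 0.16. *Txk*, a *Tec* family kinase of T cells, passed in *Il6*-/- recipients only (0.47 ± 0.14, edgeR FDR = 0.010), where its Day 3 and Day 5 libraries overlapped, and lost this call without *Il6*-/- Day 3 replicate 1 (0.058) or *Il6*-/- Day 5 replicate 1 (0.067). In WT recipients the value was -0.26 (edgeR FDR = 0.12).

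*Zap70*, which docks on phosphorylated CD3 chains, was at 406, 437 and 420 CPM in WT Day 3 and 417, 447 and 491 CPM in WT Day 5 libraries, which overlapped (log2 fold change 0.10, 95% interval -0.06 to 0.27, edgeR FDR = 0.27). In *Il6*-/- recipients it went from 377, 379 and 371 CPM to 447, 513 and 512 CPM. There the days did not overlap and *Zap70* rose by 0.38 (edgeR FDR = 5.3e-04), but the difference between the genotypes in this change did not pass (0.28 ± 0.11, edgeR FDR = 0.16, and 0.034 with the replicate number as a block within each day).

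Among the adaptors and effectors, 4 of 8 rose in each genotype, and 2 fell in WT recipients. *Lat*, *Grap2*, which bridges *Lat* and SLP-76, and *Nck1*, an adaptor to the actin machinery, rose in both, by 0.30 to 0.56 in WT and 0.49 to 0.66 in *Il6*-/- recipients. The phospholipase gene *Plcg1* passed in WT only (0.47 against 0.34 in *Il6*-/- recipients, with an edgeR FDR of up to 0.19 when single libraries were left out), and *Lcp2* in *Il6*-/- recipients only (0.29 against 0.15 in WT). *Themis* and *Vav1* fell in WT recipients. *Themis*, an adaptor best known from thymocyte selection, was at 151, 139 and 150 CPM on Day 3 and 116, 133 and 124 CPM on Day 5 in WT, without overlap, and at 154, 161 and 166 CPM and 149, 189 and 147 CPM in *Il6*-/- recipients, with overlap. The log2 fold changes were -0.24 (edgeR FDR = 0.044) and 0.01 (edgeR FDR = 0.95). *Vav1*, a guanine nucleotide exchange factor for Rac, was at 272, 274 and 266 CPM on Day 3 and 241, 231 and 226 CPM on Day 5 in WT recipients, again without overlap (log2 fold change -0.22, edgeR FDR = 0.035). In *Il6*-/- recipients *Vav1* was at 262, 250 and 252 CPM and 244, 289 and 224 CPM, and the days overlapped (log2 fold change -0.01). *Was*, the actin regulator WASP, passed in neither genotype.

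In the Ras, PKC and NF-kappaB branch, all 5 genes rose in *Il6*-/- recipients, whereas in WT recipients 3 rose and *Prkcq* fell. *Malt1* and *Bcl10*, partners in the complex that leads to NF-kappaB, rose by 0.53 and 0.25 in WT and by 0.66 and 0.35 in *Il6*-/- recipients. *Sos1*, an exchange factor for Ras, rose by 0.42 and 0.60 (in WT with an edgeR FDR of 0.065 to 0.16 without WT Day 3 replicate 1 or 2, WT Day 5 replicate 1 or 2 or *Il6*-/- Day 5 replicate 2), and *Rasgrp1*, another, by 0.53 in *Il6*-/- recipients (0.25 in WT, edgeR FDR = 0.12). *Prkcq*, which encodes protein kinase C theta, was at 361, 374 and 365 CPM in WT Day 3 and 315, 302 and 271 CPM in WT Day 5 libraries. In *Il6*-/- recipients it was at 225, 228 and 251 CPM on Day 3 and 284, 324 and 278 CPM on Day 5. Neither pair of groups overlapped and the directions were opposite, with log2 fold changes of -0.31 ± 0.08 in WT and 0.33 ± 0.08 in *Il6*-/- recipients (edgeR FDR = 0.0044 and 0.0025).

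The 11 negative regulators were split. *Dgkz*, a diacylglycerol kinase, was the gene with the largest rise of the 44 in both genotypes. It was at 89.9, 81.8 and 68.9 CPM in WT Day 3 libraries, 72.4, 71.1 and 66.6 CPM in *Il6*-/- Day 3, 237, 192 and 202 CPM in WT Day 5 and 230, 165 and 202 CPM in *Il6*-/- Day 5. The days were far apart in both genotypes, and *Dgkz* rose 2.62-fold in WT and 2.84-fold in *Il6*-/- recipients (edgeR FDR = 2.8e-07 and 1.1e-07). *Cblb*, a ubiquitin ligase that restrains activation, rose by log2 fold changes of 0.87 and 1.02. The phosphatase gene *Ptpn22* rose by 0.52 and 0.89, and *Ubash3a* and *Ubash3b*, which encode the STS proteins, rose by 0.40 to 0.48.

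*Cbl*, the relative of *Cblb*, was at 68.3, 84.0 and 78.5 CPM on Day 3 and 64.2, 66.3 and 67.3 CPM on Day 5 in WT recipients. The groups were separated by a small gap (log2 fold change -0.22, edgeR FDR = 0.041), and in *Il6*-/- recipients *Cbl* was at 75.0, 75.0 and 67.1 CPM and 70.7, 71.6 and 65.7 CPM, with overlap. *Ptpn6*, the phosphatase SHP-1, was at 734, 705 and 731 CPM in *Il6*-/- Day 3 and 614, 618 and 553 CPM in *Il6*-/- Day 5 libraries, without overlap (log2 fold change -0.28, edgeR FDR = 0.0026). In WT recipients *Ptpn6* was at 663, 624 and 606 CPM on Day 3 and 594, 592 and 542 CPM on Day 5 (log2 fold change -0.13, edgeR FDR = 0.12). *Csk*, the kinase that holds *Lck* inactive, and the adaptor genes *Sla* and *Sla2* passed in neither genotype, with log2 fold changes between -0.13 and 0.11.

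In the calcineurin-NFAT branch, of 7 genes, 1 rose and none fell in WT recipients, and none rose and 3 fell in *Il6*-/- recipients, with medians of -0.13 and -0.14. With upper-quartile scaling the 3 falling calls, *Rcan1* (-0.54), *Ppp3ca* (-0.36) and *Ppp3cb* (-0.06), were lost in *Il6*-/- recipients. There *Nfatc1* (0.27), *Nfatc2* (0.34) and *Nfatc3* (0.26) passed as higher (edgeR FDR = 0.014, 0.014 and 0.011), beside 0.04, 0.12 and 0.04 with TMM. Thus which genes of this branch passed depended on scaling, while these values kept their sign. *Rcan1*, an inhibitor of calcineurin, was at 10.9, 11.7 and 8.82 CPM in *Il6*-/- Day 3 and 5.24, 6.62 and 6.61 CPM in *Il6*-/- Day 5 libraries, without overlap (log2 fold change -0.77 ± 0.24, edgeR FDR = 0.012). In WT recipients *Rcan1* was at 13.3, 9.54 and 6.30 CPM on Day 3 and 9.98, 8.88 and 7.29 CPM on Day 5, and the Day 3 libraries spanned those of Day 5.

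*Ppp3ca* encodes the alpha catalytic subunit of calcineurin and was at 11.6, 12.9 and 11.8 CPM in *Il6*-/- Day 3 and 9.42, 7.62 and 7.13 CPM in *Il6*-/- Day 5 libraries. The days did not overlap and *Ppp3ca* fell by 0.59 ± 0.22 on the log2 scale (edgeR FDR = 0.029), whereas in WT recipients it was at 13.1, 10.3 and 10.2 CPM and 10.9, 8.26 and 5.45 CPM, with overlap. For *Ppp3cb*, the beta subunit, the *Il6*-/- libraries were at 45.0, 49.6 and 48.8 CPM on Day 3 and 41.5, 33.5 and 42.5 CPM on Day 5 (log2 fold change -0.29, edgeR FDR = 0.049, and 0.056 with the replicate number as a block within genotype). The WT libraries of *Ppp3cb* were at 43.1, 43.6 and 44.7 CPM and 36.4, 50.3 and 46.2 CPM and overlapped. Both calls were lost without *Il6*-/- Day 3 replicate 2 or 3 or *Il6*-/- Day 5 replicate 2, with an edgeR FDR of 0.052 to 0.080 for *Ppp3ca* and 0.10 to 0.23 for *Ppp3cb*. That of *Ppp3ca* was also lost without *Il6*-/- Day 5 replicate 3 (0.098), and that of *Ppp3cb* without any WT Day 3 library, WT Day 5 replicate 3 or *Il6*-/- Day 3 replicate 1 (0.051 to 0.058). *Nfatc1*, the inducible NFAT factor, rose by 0.30 in WT recipients (edgeR FDR = 0.016), but not without WT Day 3 replicate 3 (0.089) or WT Day 5 replicate 2 (0.11), and its value in *Il6*-/- recipients was 0.04. *Ppp3cc*, *Nfatc2* and *Nfatc3* passed in neither genotype.

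**Figure D3:**
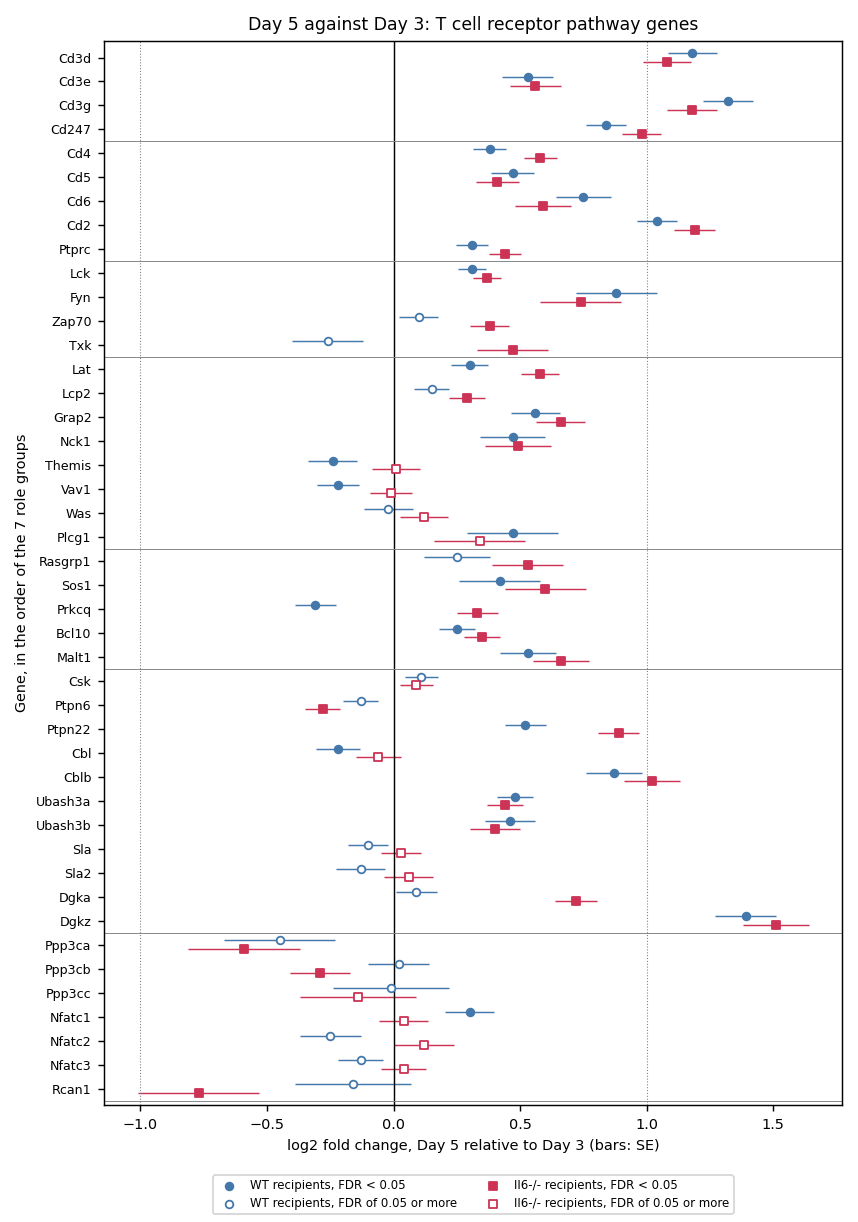
Log2 fold change from Day 3 to Day 5 for the 44 genes in order of the 7 roles, in WT (circles) and *Il6*-/- recipients (squares), with bars for the SE and filled symbols for an FDR under 0.05. *Dgkz*, *Cd3g*, *Cd3d* and *Cd2* lie to the right of 1 in both genotypes, and *Prkcq* lies at -0.31 in WT and 0.33 in *Il6*-/- recipients.

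The same 22 genes rose in both genotypes, which is 91.7% of those that rose in WT and 78.6% of those that rose in *Il6*-/- recipients. The comparisons share no library, but both come from 1 model of the 12 libraries and are not fully independent. Over all genes tested, the shared rising genes were 75.3% and 73.2% of those that rose. No gene of the 44 fell in both, whereas 3103 of all genes tested did, 84.2% of those that fell in WT and 75.9% of those in *Il6*-/- recipients. Without *Il6*-/- Day 5 replicate 2, the shallowest library, 28 genes rose and 2 fell in *Il6*-/- recipients. *Zap70*, *Txk*, *Lcp2*, *Rasgrp1* and *Dgka* passed as higher in *Il6*-/- recipients only, and *Plcg1* and *Nfatc1* in WT recipients only. Of the falling calls, *Themis*, *Vav1* and *Cbl* in WT recipients each lost significance when some libraries were left out (WT Day 3 replicate 3 and WT Day 5 replicate 3 for all 3 genes, edgeR FDR up to 0.18 for *Cbl* without WT Day 3 replicate 2). The falling calls also depended on scaling. Upper-quartile scaling moved the median of all genes by 0.20 in WT and 0.23 in *Il6*-/- recipients. With it no gene of the 44 passed as lower in either genotype, beside 20% and 22.3% of all genes. As higher, 29 and 38 passed, beside 39.7% and 41.4% of all genes. No scaling moved the median of all genes by 0.05 and 0.15. There 1 of the 44 passed as lower in each genotype, beside 24.8% and 24.6% of all genes. Relative to all genes, the median of the 44 was 0.20 and 0.31 higher with upper-quartile scaling, beside 0.21 and 0.31 with TMM.

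On Day 3 the question was whether OTII cells primed without IL-6 in the recipient differed in these transcripts. Of the 44 genes, 7 were lower in OTII cells from *Il6*-/- than from WT recipients and none was higher (edgeR FDR < 0.05). These 7 were *Dgka*, *Prkcq*, *Txk*, *Lat*, *Ptpn22*, *Cd2* and *Ptprc*. Over all genes tested, 6.19% were lower and 7.52% higher, so the 15.9% of the 44 that passed was close to the 13.7% of all genes, but all of them were in 1 direction. The median log2 fold change of the 44 genes was -0.15, beside 0.01 over all genes, and 37 of the 44 were below 0. For 23 of the 44 genes there was no overlap between WT and *Il6*-/- libraries, beside 36.2% of all genes. No gene of the 44 differed by 2-fold or more, beside 0.936% higher and 1.81% lower over all genes. With the 0 higher genes, 1 gene had an unadjusted p under 0.05 (*Ptpn6*, log2 fold change 0.20, edgeR FDR = 0.075), which DESeq2 called and limma-voom and limma-trend did not.

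*Txk* had the largest difference of the 44. It was at 78.4, 79.1 and 84.6 CPM in WT and 37.4, 39.7 and 51.4 CPM in *Il6*-/- libraries. All *Il6*-/- libraries were well below the WT libraries, 1.88-fold by the fit (log2 fold change -0.91 ± 0.14, edgeR FDR = 7.4e-04). *Dgka*, the diacylglycerol kinase that acts beside *Dgkz*, was at 751, 789 and 705 CPM in WT and 457, 453 and 480 CPM in *Il6*-/- libraries. The gap between the genotypes was wider than the spread within either, and the fold was 1.62 (log2 fold change -0.69 ± 0.08, edgeR FDR = 1.1e-04). Exons of *Dgka* share 1791 bp with *Gm31504*, *Pym1* and *Pmel* on the opposite strand, so part of its reads was uncertain under counting without strand.

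For *Prkcq* the Day 3 libraries given above, 361 to 374 CPM in WT and 225 to 251 CPM in *Il6*-/- recipients, differed 1.56-fold (log2 fold change -0.64 ± 0.08, edgeR FDR = 1.7e-04). *Lat*, the membrane scaffold of the pathway, was at 622, 670 and 668 CPM in WT and 454, 522 and 447 CPM in *Il6*-/- libraries. These did not overlap, and the difference was 1.38-fold (log2 fold change -0.46 ± 0.07, edgeR FDR = 9.9e-04). The calls of *Dgka*, *Prkcq*, *Txk* and *Lat* held when each of the 12 libraries was left out in turn.

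Differences of the other 3 genes were smaller. *Ptpn22* was at 238, 282 and 269 CPM in WT and 187, 209 and 221 CPM in *Il6*-/- libraries (1.28-fold, log2 fold change -0.35, edgeR FDR = 0.0092). *Cd2*, at 397 to 459 CPM against 336 to 353 CPM, was 1.27-fold lower (log2 fold change -0.34, edgeR FDR = 0.0098). *Ptprc* was at 1970, 1970 and 2040 CPM in WT and 1630, 1630 and 1740 CPM in *Il6*-/- libraries (1.20-fold, log2 fold change -0.26, edgeR FDR = 0.012). None of the 3 overlapped between genotypes, but each lost its call without some libraries. The edgeR FDR was 0.063 for both *Cd2* and *Ptpn22* without WT Day 3 replicate 2 and 0.060 for both *Ptpn22* and *Ptprc* without *Il6*-/- Day 3 replicate 1. For *Ptprc* it was also 0.056 without WT Day 3 replicate 3 and 0.058 without *Il6*-/- Day 3 replicate 2.

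**Figure D4:**
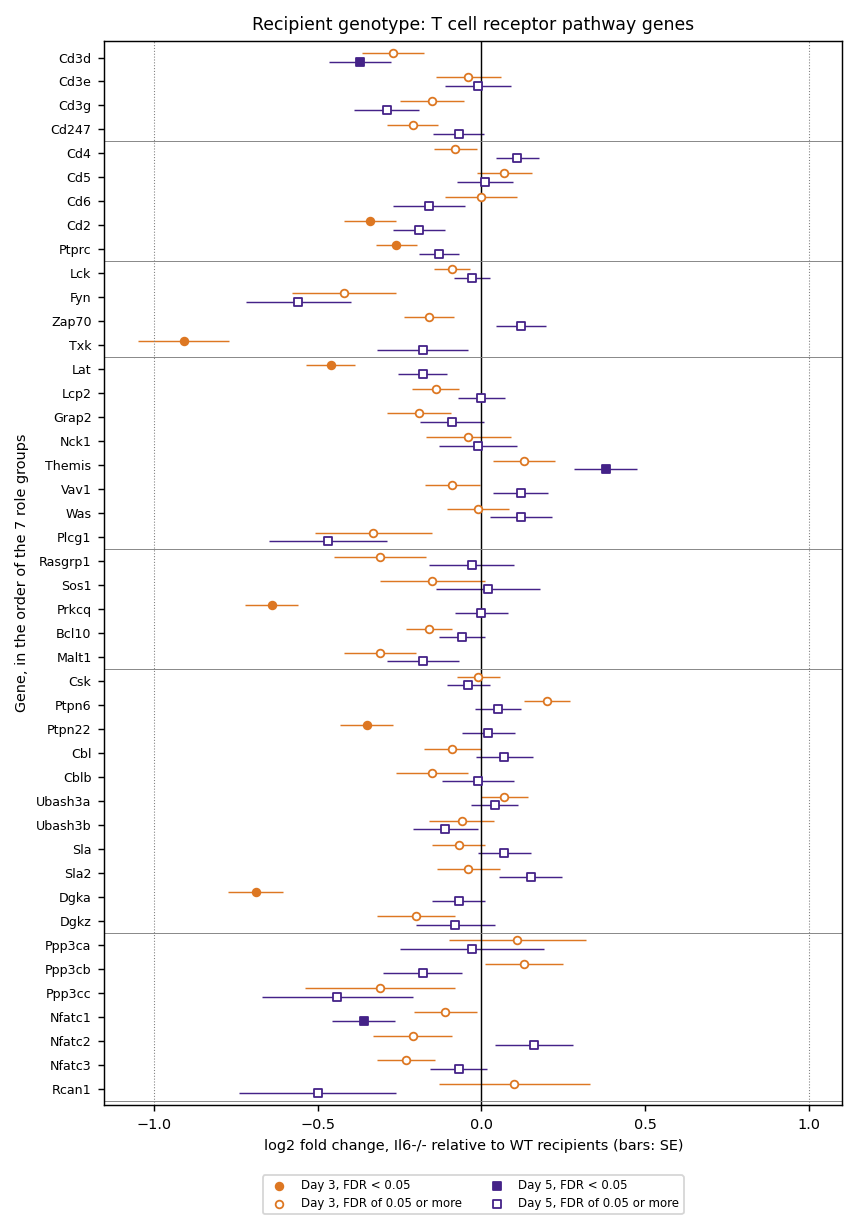
Log2 fold change of the 44 genes in OTII cells from *Il6*-/- relative to WT recipients on Day 3 (circles) and Day 5 (squares), with bars for the SE and filled symbols for an FDR under 0.05. Most circles lie left of 0 (37 of 44), the 7 filled ones between -0.91 and -0.26, and dotted lines mark a 2-fold change that no gene reached.

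No gene of the TCR-CD3 complex passed on Day 3, although for *Cd3d* and *Cd247* this turned on the setting. The log2 fold changes were -0.27 for *Cd3d* (edgeR FDR = 0.078, 95% interval -0.47 to -0.06), -0.21 for *Cd247* (0.085), -0.15 for *Cd3g* (0.38) and -0.04 for *Cd3e* (0.84, 95% interval -0.26 to 0.17). Both *Cd3d* and *Cd247* passed with no scaling (edgeR FDR = 0.031 and 0.038), with a replicate block within each day (0.020 and 0.023), with the 2 groups alone (0.0081 and 0.028), without WT Day 3 replicate 1 (0.048 and 0.036) and without *Il6*-/- Day 5 replicate 2 (0.016 and 0.043), and *Cd3d* also with no low-count filter (0.022). Of the proximal kinases, *Fyn*, *Zap70* and *Lck* had values of -0.42, -0.16 and -0.09 that did not pass, and WT Day 3 replicate 1 stood at 197 CPM for *Fyn* beside 120 and 118 CPM in the other WT libraries. In the Ras, PKC and NF-kappaB branch all 5 values were negative, with -0.31 for *Malt1* (edgeR FDR = 0.070) and for *Rasgrp1* (0.16). The calcineurin-NFAT branch had 3 positive and 4 negative values and no call, and *Nfatc3*, of which 2626 bp of exons overlap *Esrp2* on the opposite strand, was at -0.23 (edgeR FDR = 0.097). These calls turned on the setting too. Of 11 alternatives that kept all libraries of the groups compared, *Malt1* passed in 7, *Nfatc3* in 4, *Rasgrp1* in 3, *Fyn* in 2 and *Zap70* in 1.

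A few markers of other cell types differed between the genotypes on Day 3. The 8 B cell markers summed to 6.83 to 9.12 CPM in WT and 14.1 to 15 CPM in *Il6*-/- libraries, with 3 of the 8 under 1 CPM in all libraries, *Ms4a1* among them. *Cd22* (0.326 to 1.37 and 6.02 to 7.32 CPM) passed as higher and *Pax5* (0.742 to 0.923 and 0 to 0.371 CPM) as lower in *Il6*-/- libraries, and without *Cd22* the sums were 5.46 to 8.79 and 6.74 to 8.48 CPM and overlapped. The 11 myeloid and dendritic cell markers summed to 28.0 to 43.7 CPM and 53.2 to 59.4 CPM, with *Cd74* at 13.9 to 17.2 and 34.1 to 42.3 CPM the only one that passed. Without *Cd74* the sums were 14.1 to 28.6 and 17.1 to 19.1 CPM and overlapped, and the median log2 fold change of the 8 markers tested was -0.25. The 7 CD8 T cell and NK cell markers summed to 62.7 to 75.3 and 83.7 to 114 CPM. Of the 5 tested only *Klrb1c* passed, at 3.75 to 5.58 and 18.2 to 26.4 CPM (log2 fold change 2.11, edgeR FDR = 7.7e-06). *Eomes* (1.8), *Cd8a* (0.33), *Cd8b1* (0.25) and *Prf1* (-2.1) did not pass. On Day 5 *Klrb1c* passed as lower (-0.6), and its interaction was -2.7 (edgeR FDR = 0.00017). The 5 regulatory T cell markers summed to 78.3 to 87.2 and 54.8 to 68.5 CPM, and only *Ikzf2* passed, as lower (-0.44, edgeR FDR = 0.013). Summed CD4 T cell markers, some of which are among the 44 genes, were 7820 to 8970 CPM in WT and 7240 to 7450 CPM in *Il6*-/- libraries. The part of these in the results on Day 3 was not tested.

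On Day 5 fewer of the 44 genes differed between OTII cells from *Il6*-/- and WT recipients. *Themis* was higher, and *Cd3d* and *Nfatc1* were lower, 3 of 44 or 6.82%, beside 1.27% higher, 3.35% lower and 4.61% in either direction over all genes. The median log2 fold change was -0.03, beside 0.01 over all genes, and 9 of the 44 genes did not overlap between genotypes, beside 19.6% of all genes. None reached 2-fold, beside 0.324% higher and 0.818% lower over all genes.

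*Cd3d*, at 1320 to 1560 CPM in WT and 955 to 1200 CPM in *Il6*-/- libraries on Day 5, was 1.29-fold lower without overlap (log2 fold change -0.37 ± 0.10, edgeR FDR = 0.037). *Nfatc1* was at 663, 780 and 614 CPM in WT and 479, 577 and 541 CPM in *Il6*-/- libraries. These did not overlap either (log2 fold change -0.36 ± 0.10, edgeR FDR = 0.044), and on Day 3 they had, at 605, 561 and 505 CPM against 531, 516 and 503 CPM. *Themis* was at 116 to 133 CPM in WT and 147 to 189 CPM in *Il6*-/- libraries and was 1.30-fold higher (log2 fold change 0.38 ± 0.10, edgeR FDR = 0.036).

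Each of these 3 calls depended on single libraries. *Cd3d* kept its call without WT Day 3 replicate 1 or 2, WT Day 5 replicate 3 or *Il6*-/- Day 5 replicate 1 and lost it without any of the other 8 libraries, with an edgeR FDR of up to 0.19. *Themis* kept it without WT Day 3 replicate 1 or *Il6*-/- Day 5 replicate 1 or 3 (edgeR FDR up to 0.16 without the others), and *Nfatc1* without WT Day 3 replicate 1 or 3 or WT Day 5 replicate 3 (up to 0.18). Without *Il6*-/- Day 5 replicate 2 none of the 44 genes passed. Same-numbered libraries of the 2 genotypes deviated together on Day 5, and with the replicate number as a block within each day the 3 calls held and 2 genes were added as lower. The share of all genes that passed also grew with this block, to 5.43% higher and 6.30% lower, so the 1 higher and 4 lower of 44 were near the background. The added genes were *Cd3g* (log2 fold change -0.30, edgeR FDR = 0.016, against 0.10 without the block) and *Fyn* (-0.56, edgeR FDR = 0.028, against 0.066). *Fyn* was at 265, 296 and 238 CPM in WT and 184, 156 and 202 CPM in *Il6*-/- libraries on Day 5, without overlap, and 465 bp of its exons overlap *Gm31616* on the opposite strand.

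*Cd3e* and *Lck* differed by -0.01 (95% interval -0.23 to 0.21) and -0.03 (95% interval -0.15 to 0.09) on Day 5, and *Cd247* by -0.07 (95% interval -0.23 to 0.10), so differences larger than these intervals were not seen. Summed markers overlapped between the genotypes on Day 5 for myeloid and dendritic cells, at 55.8 to 92.8 CPM in WT and 59.2 to 83.3 CPM in *Il6*-/- libraries. For B cells they were 9.61 to 11.7 and 12.8 to 17.3 CPM and did not. Regulatory T cell markers, at 123 to 130 and 95.9 to 112 CPM, and CD4 T cell markers, at 12100 to 12600 and 11200 to 12000 CPM, did not overlap either, and no marker of these 2 lists passed. The 5 lung epithelium markers summed to 2.55 to 20.7 CPM in WT and 5.19 to 9.58 CPM in *Il6*-/- libraries, and to 0.475 to 11.3 CPM on Day 3. Their part in the results of Day 5 was not tested.

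**Figure D5:**
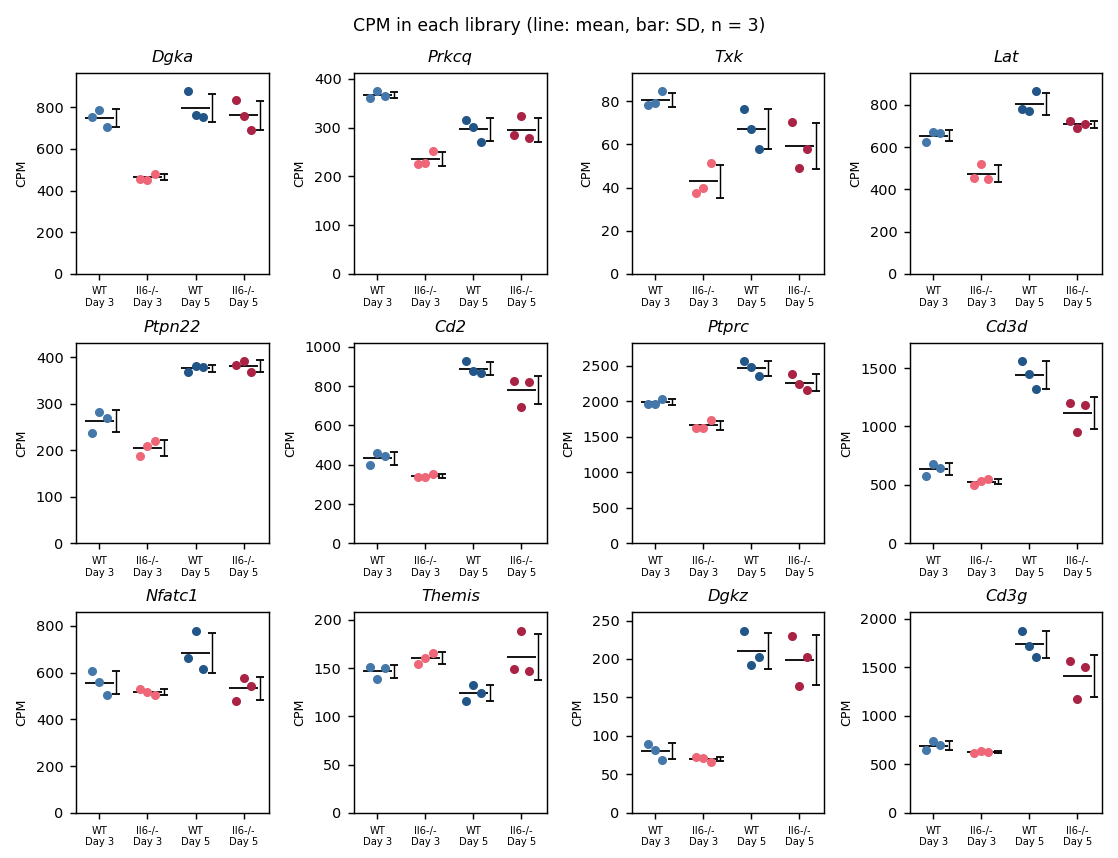
CPM of 12 genes in each of the 12 libraries, with lines for group means and bars for the SD (n = 3) and axes from 0. *Dgka*, *Prkcq* and *Txk* are lower in *Il6*-/- than in WT libraries on Day 3 and overlap on Day 5, whereas *Cd3d*, *Cd3g*, *Cd2* and *Dgkz* are higher on Day 5 in both genotypes.

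The genotype difference itself changed between the days for 3 of the 44 genes, *Prkcq*, *Dgka* and *Txk*, and in each it was less negative on Day 5 (interaction, edgeR FDR < 0.05). Over all genes 1.80% passed in this direction, 3.12% in the other and 4.92% in either, and by at least 2-fold 0.567% and 0.811%, against none of the 44. No gene of the 44 passed in the other direction, and none had an unadjusted p under 0.05 there or passed by DESeq2, limma-voom or limma-trend. The median interaction of the 44 was 0.13, beside 0.00 over all genes. The interaction, the genotype differences and the changes between the days use the same 12 libraries and are not independent of each other.

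For *Prkcq* the difference between the genotypes went from -0.64 on Day 3 to 0.00 on Day 5 (interaction 0.64 ± 0.11, edgeR FDR = 0.0088). On Day 5 the libraries were at 271 to 315 CPM in WT and 278 to 324 CPM in *Il6*-/- recipients and overlapped. *Dgka* was at 876, 762 and 753 CPM in WT Day 5 and 833, 757 and 693 CPM in *Il6*-/- Day 5 libraries, which also overlapped, so that its difference went from -0.69 to -0.07 (interaction 0.62 ± 0.12, edgeR FDR = 0.0097). *Dgka* rose 1.64-fold from Day 3 to Day 5 in *Il6*-/- recipients (edgeR FDR = 2.8e-06), and in WT recipients the days overlapped (log2 fold change 0.09). Both interactions held when each library was left out.

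*Txk* was at 76.5, 67.3 and 58.0 CPM in WT Day 5 and 70.4, 49.1 and 58.1 CPM in *Il6*-/- Day 5 libraries, and these overlapped. Its difference went from -0.91 to -0.18 (interaction 0.73 ± 0.20, edgeR FDR = 0.049). This call held in 3 of the 12 fits that left out a library, those without *Il6*-/- Day 3 replicate 3, WT Day 5 replicate 1 or *Il6*-/- Day 5 replicate 2, and the edgeR FDR was 0.060 to 0.13 without any of the others. With the replicate number as a block within each day, 6 genes passed, the 3 above and *Ptpn22* (0.37, edgeR FDR = 0.011), *Lat* (0.28, 0.046) and *Zap70* (0.28, 0.034). Without the block, these 3 had edgeR FDRs of 0.074, 0.15 and 0.16. With it, 5.28% of all genes passed in this direction and 6.24% in the other, as against 1.80% and 3.12% without it. None of the 4 motifs was found in the 250 bases upstream of *Prkcq*, *Dgka* or *Txk*.

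Among 35 other genes of the pathway, 34 were tested, and they are given by counts. On Day 3, 1 was higher in OTII cells from *Il6*-/- recipients (*Nfat5*) and 9 were lower, among them *Trac* and *Trbc2*, which encode constant regions of the TCR alpha and beta chains, *Skap1*, an adaptor to integrins, and *Stim1*, the calcium sensor of the endoplasmic reticulum. *Trac* was at 2660, 3350 and 3090 CPM in WT and 2390, 2380 and 2400 CPM in *Il6*-/- libraries (log2 fold change -0.34, edgeR FDR = 0.0093). *Skap1* was at 437, 473 and 472 CPM and 305, 353 and 345 CPM (log2 fold change -0.46, edgeR FDR = 6.4e-04). Neither overlapped between genotypes. On Day 5, 4 of the 34 were lower (*Nck2*, *Orai1*, *Rasa1* and *Stim2*) and none was higher. Over all genes tested, 7.52% were higher and 6.19% lower on Day 3, and 1.27% higher and 3.35% lower on Day 5. In the interaction *Skap1* passed as higher (0.42, edgeR FDR = 0.030) and *Orai1* and *Ppp3r1* as lower, beside 1.80% and 3.12% of all genes. From Day 3 to Day 5, 19 rose and 2 fell in WT recipients, and 21 rose and 4 fell in *Il6*-/- recipients. Over all genes 29.5% rose and 27.1% fell in WT, and 30.4% rose and 30.1% fell in *Il6*-/- recipients. *Trac* rose by 0.73 and 0.93 and *Trbc2* by 0.60 and 0.70.

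Transcripts that TCR signals induce within hours were read from a further list of 10 genes. From Day 3 to Day 5, 8 of them rose and *Irf4* fell in both genotypes, and *Myc* fell in *Il6*-/- recipients. Over all genes, 29.5% and 30.4% rose and 27.1% and 30.1% fell in WT and *Il6*-/- recipients. *Nr4a1* was at 51.1, 65.8 and 59.1 CPM in WT Day 3 and 128, 145 and 169 CPM in WT Day 5 libraries, and at 62.7, 61.6 and 59.7 CPM and 125, 145 and 165 CPM in *Il6*-/- recipients. The days were apart and the genotypes overlapped, with log2 fold changes of 1.33 and 1.24 between the days. On Day 3, *Egr2* (-0.78, edgeR FDR = 7.8e-04) and *Egr1* (-0.46, edgeR FDR = 0.018) were lower and *Nr4a3* (1.00, edgeR FDR = 0.0072) and *Tnfrsf9* (0.48, edgeR FDR = 0.023) higher in OTII cells from *Il6*-/- recipients. On Day 5, *Egr1* (-0.58) and *Egr3* (-0.52) were lower, and no gene of this list passed in the interaction. Of all genes, 7.52% were higher and 6.19% lower on Day 3, 1.27% and 3.35% on Day 5, and 4.92% passed in the interaction.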

How the data were processed

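Single-end reads of 50 bp were processed by the authors with Trim Galore 0.4.4 for trimming, STAR 2.5.2a for alignment on GRCm39 and HTSeq 0.6.1p1 for counting without regard to strand. Their stated trimming options are those for read pairs and Nextera libraries, and the effect was not tested. Each library has a deposited table of raw gene counts, from which 5 summary classes that are not genes were left out. Of all reads, 11.7% to 17.3% were on no gene, 1.96% to 2.28% were ambiguous and 23.7% to 28.2% were not unique. The authors also deposited log2 CPM of 11258 genes, all 44 genes among them, which were recomputed from the counts within 5e-14 and used in 1 alternative.

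Tests were run in edgeR 4.0.16 (R 4.3.3) on the genes that filterByExpr retained. TMM scaled the library sizes (factors 0.944 to 1.06), and 1 quasi-likelihood model of the 12 libraries had a coefficient per group. FDRs are Benjamini-Hochberg values over the 13570 genes tested, and intervals are 95% intervals of the log2 fold change on 15 degrees of freedom for most genes. Gene positions, transcript lengths, exon overlaps and promoter windows came from GENCODE vM39 on GRCm39, in which all 44 symbols were found. Exons of 10 of them overlap another counted gene.

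Values in each library are given for genes of the 44 that passed in a genotype comparison or the interaction, for the 4 largest rises and falls between the days in each genotype, and for the CD3 chains, *Lck* and *Zap70*. The genes and lists were chosen with earlier results of these data known. *Fyn*, *Nr4a1*, *Trac*, *Skap1* and *Trbc1* were picked to be shown by library after their values were seen. Same-numbered libraries of the 2 genotypes correlated in their deviations from group means by 0.24, 0.21 and 0.13 on Day 5 and by 0.03, 0.06 and 0.03 on Day 3. The labels do not say what the numbers mark, so the main tests used no replicate block on either day. Blocks on the replicate number were run only as alternatives, for both days. Some items of the marker and pathway lists are not reported here by name. Alternatives were RLE, upper-quartile and no scaling, other low-count filters, DESeq2 1.42.0, limma-voom and limma-trend (limma 3.58.1), replicate blocks, the 2 groups alone, a 2-fold limit and leaving out each library.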

Additional observations from a re-analysis of the deposited data

Results flagged for a closer look

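The difference between OTII cells from *Il6*-/- and WT recipients changed from Day 3 to Day 5 for 3 of the 44 genes, by a test of the change itself (edgeR interaction). The change in log2 fold change was 0.73 for *Txk*, 0.64 for *Prkcq* and 0.62 for *Dgka*, with FDRs of 0.049, 0.0088 and 0.0097. In each of the 3 the *Il6*-/- libraries were below the WT libraries on Day 3 and overlapped them on Day 5. Groups of 3 libraries are too small to look for a library far from the others.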

How the results depend on the processing

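Over the genes higher on Day 3 in OTII cells from *Il6*-/- recipients, the count of 0 became 1 with DESeq2, with a replicate block within each day and with the 2 groups alone. In the same order, 9.06%, 10.9% and 11.7% of all genes were higher. The count of 7 lower genes was 11 with no scaling, 12 with no low-count filter, 12 with a replicate block within each day, 15 with the 2 groups alone and 0 at 2-fold, beside 8.02%, 3.8%, 8.7% and 10.6% of all genes in the first 4 of these settings and 6.19% in the text, and 5 to 12 over the fits that left out a library (12 without *Il6*-/- Day 5 replicate 2). On Day 3 the correlations of same-numbered libraries were low (0.03, 0.06 and 0.03), and whether the numbers mark pairs there is not known. *Trbc1*, of the other pathway genes, followed the number on both days. It was at 290, 239 and 87.5 CPM in WT and 236, 193 and 78.9 CPM in *Il6*-/- libraries on Day 3. On Day 5 it was at 106, 5.56 and 543 CPM and 96.3, 5.16 and 532 CPM. On Day 5 the count of 1 higher gene was 0 with the 2 groups alone and at 2-fold, and 0 to 1 without single libraries. In the same order, 0.423%, 0.324% and 0.316% to 4.18% of all genes were higher. The count of 2 lower genes was 1 with RLE scaling, 0 with no scaling, 6 with no low-count filter, 1 with a replicate block over all groups, 4 with a replicate block within each day, 1 with the 2 groups alone (*Fyn*, edgeR FDR = 0.029, with *Cd3d* and *Nfatc1* both lost at 0.10), 0 at 2-fold and 0 to 5 without single libraries, with 5 without WT Day 5 replicate 3, 3 without WT Day 3 replicate 1 or *Il6*-/- Day 5 replicate 1, 1 without WT Day 3 replicate 2 or 3, and 0 without each of the other 7. Up to the 2-fold limit and in the same order, 3.19%, 2.92%, 3.11%, 3.33%, 6.3%, 2.34% and 0.818% of all genes were lower. Without single libraries the share was 1.3% to 5.34%, highest without WT Day 5 replicate 3. Between the days, the 24 rising genes in WT recipients were 4 at 2-fold and 21 to 24 without single libraries, and the 28 in *Il6*-/- recipients were 5 and 27 to 29. With upper-quartile scaling they were 29 and 38, beside 39.7% and 41.4% of all genes. At 2-fold 12.7% and 14.5% of all genes rose, and without single libraries 24.8% to 28.7% and 26% to 29.7%. The 4 falling genes in WT recipients were 0 with upper-quartile scaling, 1 with no scaling, 7 with no low-count filter, 2 at more than 1 CPM, 1 with limma-trend, 0 at 2-fold and 1 to 7 without single libraries (7 without *Il6*-/- Day 5 replicate 2, 1 without WT Day 3 or WT Day 5 replicate 3). In the same order, 20%, 24.8%, 15.4%, 29%, 30.1%, 9.39% and 23.7% to 28.7% of all genes fell. The 4 in *Il6*-/- recipients were 0 with upper-quartile scaling, 1 with no scaling, 0 at 2-fold and 2 to 4 without single libraries. Of all genes, 22.3%, 24.6%, 11.4% and 27.1% to 29.8% fell there. *Vav1* in *Il6*-/- recipients, at -0.01 in the text, rose by 0.21 with upper-quartile scaling (edgeR FDR = 0.026), the only change of sign that passed, under a scaling that moved the median of all genes by 0.23. In the interaction, 3 genes became 6 with a replicate block within each day, 0 at 2-fold and 2 to 3 without single libraries. Of all genes, 5.28%, 0.567% and 0.706% to 2.55% passed as higher there. Where a scaling moved the values of all genes, or a 2-fold limit was used, the construction shows the cause. For the others, among them the fits that left out a library, the cause was not tested.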
